A study of Zea mays with 2 samples.

Results

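The regions described here are 2850 binding peaks of the maize protein KN1 whose summit, the point of highest ChIP signal, lay more than 500 and at most 2000 bp upstream of an annotated gene start. They are called mid-upstream peaks below, and ranges such as 500 to 2000 bp leave out the lower bound. They were taken by position alone from the 20647 peaks that lay on the 10 chromosomes and were listed with a single gene carrying a nuclear identifier. They made up 13.8% of those classified peaks and belonged to 2682 genes. Distances follow the strand of the gene, and the strength of a peak was not used to choose it.

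Chromatin immunoprecipitation with sequencing (ChIP-seq) was done on leaf protoplasts, wall-less single cells, of the maize inbred line B73. The seedlings had been grown in light and then etiolated in the dark, and the protoplasts were transfected with the plasmid p1107-KN1, which overproduces KN1 carrying a biotin ligase recognition peptide (BLRP). The data comprise 1 ChIP library and 1 input library, both from transfected protoplasts. There is no replicate, so intervals and p-values describe how peaks were counted in these 2 libraries and say nothing of how another transfection would differ. Neighbouring peaks were treated as independent in every test. All fold enrichments and all q-values are the authors' own, from the deposited peak list. A fold is the number of overlapping ChIP reads at the summit over the input level there, with 1 added to each. At all but 7.95% of classified peaks the input level was a genome-wide floor, so the fold there follows the ChIP reads alone.

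KN1 belongs to the TALE homeodomain proteins, which bind DNA alone or together with partners of the BELL class. It is known for keeping cells of the shoot meristem undifferentiated, and it is normally absent from leaf cells, where its misexpression causes the knotted leaves that gave the gene its name. Here tagged KN1 was made in excess in such leaf cells, and meristem cells were not assayed. In plant genes, the DNA just before the start holds the core promoter, and regulatory elements that bind further transcription factors often lie farther upstream.

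Mid-upstream peaks became sparser with distance from the gene. The 100-bp bin from 500 to 600 bp held 328 summits (exact Poisson 95% interval 293 to 365), and the bin from 1900 to 2000 bp held 101 (82.3 to 123). In all, 1332 peaks (46.7%) lay at 500 to 1000 bp, 893 (31.3%) at 1000 to 1500 bp and 625 (21.9%) at 1500 to 2000 bp. Their median distance was 1040 bp. The bins closer to the gene held far more summits, with 453 at 400 to 500 bp and 1435 in the first 100 bp, so the window takes in the shoulder of the promoter maximum and the start of a long tail.

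**Figure D1:**
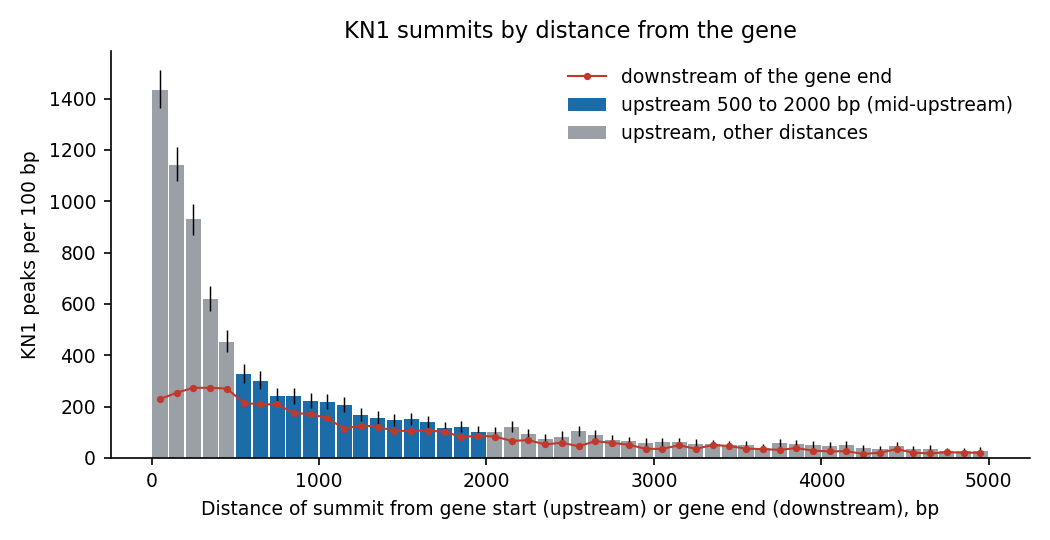
Number of KN1 summits per 100 bp against distance in bp, upstream of the gene start (bars, with exact Poisson 95% intervals) and downstream of the gene end (line). Blue bars are the mid-upstream peaks, which fall from 328 to 101 per bin, and the upstream bars exceed the downstream line in every bin of that window.

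The same distance on the other side of the gene held fewer peaks. At 500 to 2000 bp downstream of the gene end there were 2077 summits, so mid-upstream peaks outnumbered them 1.37 to 1 (exact binomial 95% interval 1.30 to 1.45). The ratio was 1.36 (1.26 to 1.48) at 500 to 1000 bp, 1.44 (1.30 to 1.60) at 1000 to 1500 bp and 1.30 (1.15 to 1.47) at 1500 to 2000 bp. These intervals overlap, so no trend of the ratio within the window was resolved. These counts rest on the positions that define the classes and are given as a description.

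KN1 enrichment at mid-upstream peaks spanned a wide range. The median fold was 11.6 (quartiles 6.65 and 22.4), and folds ran from 3.19 to 95.001. The median ChIP pileup, the number of overlapping extended reads at the summit, was 32, with quartiles of 18 and 64. The median −log10 q was 26.1. Over all classified peaks the median fold was 9.47 and the median pileup 26. A fold above that overall median was found at 1621 of the 2850 mid-upstream peaks (56.9%, exact Clopper-Pearson 95% interval 55.0 to 58.7%), beside 48.8% of all classified peaks. The overall share is below an even split because many peaks tie at the median.

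Strong peaks were more frequent here than inside genes or right at the promoter. Inside genes 2624 of 6760 peaks (38.8%) exceeded the overall median, which gives odds 2.08 times as high for mid-upstream peaks (95% interval 1.90 to 2.27; two-sided Fisher's exact test, adjusted p = 2.18e-58, Benjamini-Hochberg over 8 tests). Among peaks 1 to 500 bp upstream the share was 51.1% (2338 of 4579), and the odds ratio 1.26 (1.15 to 1.39; adjusted p = 4.26e-06 by Fisher's exact test). Within the promoter class the share was lowest at the summits nearest the gene. It rose from 43.7% in the first 100 bp to 51.4% at 100 to 200 bp and 52.6% at 200 to 300 bp. It then reached 58.5% at 300 to 400 bp and 60.04% at 400 to 500 bp, before 57.3% in the first bin of the window. Against promoter peaks at 300 to 500 bp alone, a comparison added after this profile was seen, the odds ratio was 0.911, which did not pass Fisher's exact test (adjusted p = 0.388).

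**Figure D2:**
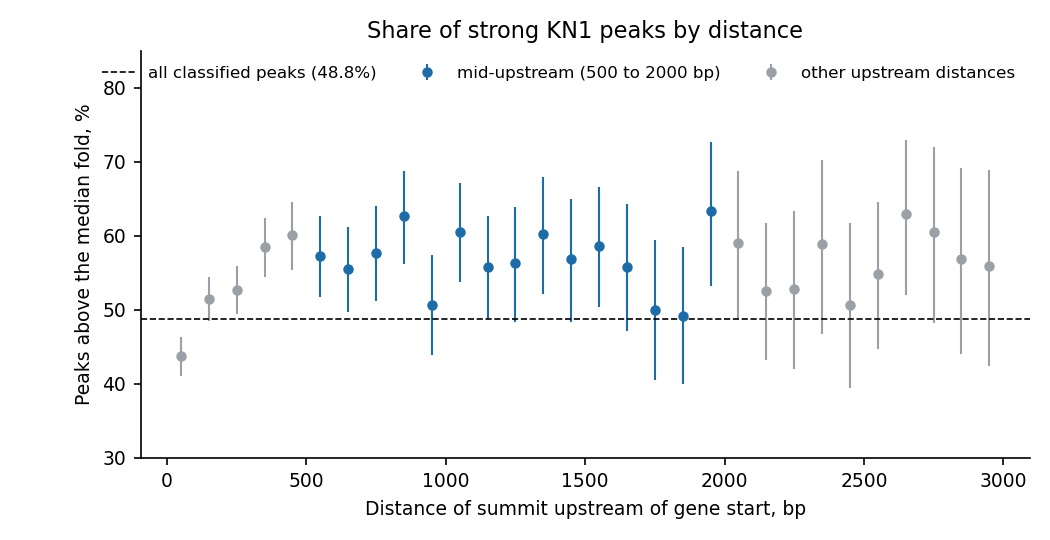
Share of peaks above the median fold of all classified peaks (percent, with exact 95% intervals) in 100-bp bins of summit distance upstream of the gene start. Blue points are mid-upstream peaks, and the dashed line is the share among all classified peaks, 48.8%. The share rises over the first 500 bp and lies between 49.2 and 63.4% in the 15 bins of the mid-upstream window.

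Within the window, strength did not change detectably with distance. At 500 to 1000 bp 757 of 1332 peaks (56.8%) exceeded the overall median, and at 1500 to 2000 bp 346 of 625 (55.4%). The odds ratio was 1.06 (95% interval 0.872 to 1.29; adjusted p = 0.637 by Fisher's exact test). The median fold was 11.6, 11.6 and 10.9 in the successive 500-bp stretches. Across the 2850 peaks the Spearman rho of distance and fold was −0.02, given as a description of 1 library pair. Among peaks at 1 to 500 bp it was 0.14.

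Mid-upstream peaks could not be told from those farther out by fold. Of the 1843 peaks more than 2000 bp upstream, 1039 (56.4%) exceeded the overall median, an odds ratio of 1.02 (95% interval 0.905 to 1.15; adjusted p = 0.74 by Fisher's exact test). Of the 2077 peaks at the same distance downstream, 1161 (55.9%) did so, an odds ratio of 1.04 (0.927 to 1.17; adjusted p = 0.637 by Fisher's exact test). The upper bounds allow odds up to 1.15 and 1.17 times as high at mid-upstream peaks.

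At the strong end of the range, mid-upstream peaks lay close to those beyond 2000 bp upstream and to those at the same distance downstream. A fold of at least 30 was reached by 488 mid-upstream peaks (17.1%, 95% interval 15.8 to 18.6%), beside 12.5% of all classified peaks. The share was 13.3% (12.3 to 14.3%) in the first 500 bp, 6.67% (6.09 to 7.29%) inside genes, 16.8% (15.1 to 18.6%) beyond 2000 bp upstream and 17.7% (16.1 to 19.4%) at 500 to 2000 bp downstream. A fold of at least 50 was reached by 144 mid-upstream peaks (5.05%), beside 3.66% of all classified peaks, 5.10% beyond 2000 bp upstream and 6.02% at 500 to 2000 bp downstream. Both limits were chosen with the values known, and no test was run on them.

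The strongest mid-upstream peak lay on chromosome 3 at 196322032 to 196322872, in the coordinates of the deposited table, whose contig names are those of the B73 assembly AGPv4. Its summit was 913 bp upstream of Zm00001d043318, a plus-strand gene model of 672 bp, where 270 reads overlapped, the fold was 95.001 and −log10 q reached 464. Next came a peak on chromosome 2 at 226467373 to 226469112, 1740 bp wide, with its summit 1733 bp upstream of Zm00001d007274 on the minus strand and a fold of 92.2. The third, on chromosome 6 at 95058606 to 95059249, was the only listed peak of its gene, Zm00001d036623, and had a fold of 86.2 at 1297 bp upstream. Gene identifiers are not paired with symbols in the tables used here, so the functions of these genes are not described.

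The 20 strongest mid-upstream peaks had folds from 78.2 to 95.001 and pileups of 222 to 270 reads. They were spread over 9 chromosomes. Their summits lay at 517 to 1918 bp, 9 of them at 500 to 1000 bp, 8 at 1000 to 1500 bp and 3 at 1500 to 2000 bp. In 15 of the 20 cases the gene had at least 1 other listed peak, and in 5 it had none. Input was at the genome-wide floor at all 20, so their folds are set against the same denominator. At the weak end, 6 peaks on 4 chromosomes rested on 9 overlapping reads each and had a fold of 3.51.

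Mid-upstream peaks were wider than those in the first 500 bp, but about as wide as peaks at larger distances. The median peak spanned 494 bp (quartiles 343 and 740 bp), against 469 bp in the first 500 bp upstream and 407 bp inside genes. It was 495 bp beyond 2000 bp upstream and 488 bp at 500 to 2000 bp downstream. A width above the overall median of 454 bp was found at 1630 of them (57.2%), beside 49.9% of all classified peaks, 56.4% of those beyond 2000 bp and 55.1% of those at the same distance downstream. In the first 500 bp the share was 52.7% (2413 of 4579), an odds ratio of 1.199 (95% interval 1.09 to 1.32; adjusted p = 0.000411 by Fisher's exact test). Against promoter peaks at 300 to 500 bp alone, again a later addition, the direction turned, with an odds ratio of 0.745 (adjusted p = 0.000286 by Fisher's exact test), since 64.0% of those exceeded the median width of that comparison. The difference also missed the threshold outside the outermost 10% at each chromosome end. The odds ratio there, by the median width of those peaks, was 1.12 (adjusted p = 0.141 by Fisher's exact test). Among peaks of 400 to 600 bp the odds ratio was 1.05 (adjusted p = 0.725 by Fisher's exact test). That setting restricts width itself, so it cannot test a difference in width.

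Broad peaks formed a visible minority. A width of at least 1200 bp was found at 243 mid-upstream peaks (8.53%, 95% interval 7.53 to 9.61%), beside 4.83% of all classified peaks. The share was 3.30% (2.80 to 3.86%) in the first 500 bp upstream, 7.0% (5.88 to 8.26%) beyond 2000 bp and 7.17% (6.10 to 8.37%) at the same distance downstream. No test was run on this limit. The widest mid-upstream peak, and the widest of all chromosomal peaks with a single gene, spanned 4243 bp on chromosome 8 (171081255 to 171085497). Its summit was 1846 bp upstream of Zm00001d008143, a gene model of 292 bp on the minus strand that the peak overlapped, and its fold was 40.3.

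**Figure D3:**
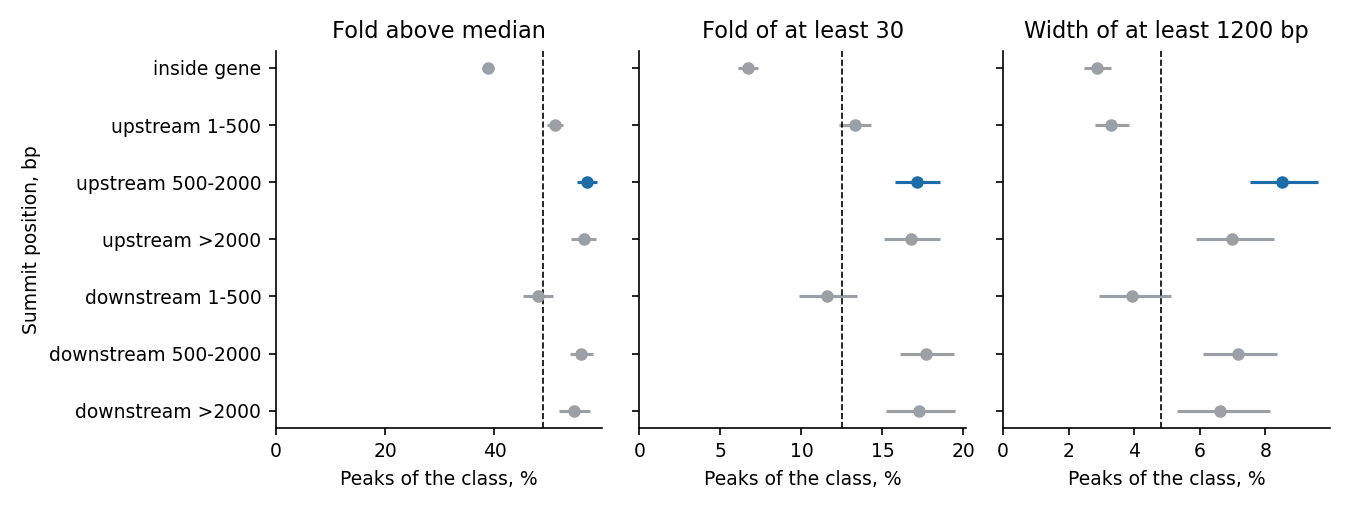
Share of peaks in each position class (percent, with exact 95% intervals) with a fold above the overall median, a fold of at least 30 and a width of at least 1200 bp. Dashed lines are the shares among all classified peaks, 48.8, 12.5 and 4.83%. Mid-upstream peaks (blue) lie above the line in each panel, with peaks inside genes lowest.

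Width and fold went together among mid-upstream peaks, with a Spearman rho of 0.80 over 2850 peaks. The 448 peaks narrower than 300 bp had a median fold of 5.26 and none above 9.11. The 742 peaks from 500 to under 800 bp wide had a median fold of 16.8, and the 243 of at least 1200 bp one of 37.5. Part of this relation is built into peak calling, because a taller pileup clears the threshold over more bases. It was as close in the first 500 bp, where rho was also 0.80.

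Most mid-upstream peaks kept clear of the promoter over their whole length. The edge nearest the gene was more than 500 bp from it at 1974 peaks (69.3%, 95% interval 67.5 to 71.0%), and these had a median fold of 9.82 and a median width of 449 bp. At 667 peaks (23.4%) the edge reached within 500 bp without touching the gene, with a median fold of 13.3. A further 209 (7.33%) overlapped the gene itself although the summit lay over 500 bp away. These had a median width of 1286 bp and a median fold of 32.6. Reaching the gene requires width, so these differences follow in part from the grouping.

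Among upstream peaks, those at 500 to 2000 bp included, the summit lay more often on the side of the peak that faced away from the gene. At mid-upstream peaks it lay on the far side of the peak centre in 1605 peaks and on the gene side in 1230, with 15 at the centre, so 43.4% faced the gene (95% interval 41.6 to 45.2%). The share facing the gene was 37.7% (36.3 to 39.2%) in the first 500 bp upstream, 45.0% (42.7 to 47.3%) beyond 2000 bp and 47.0% (44.9 to 49.2%) at 500 to 2000 bp downstream. The side was the far one more often on both strands, with 41.2% facing the gene for plus-strand genes and 45.6% for minus-strand genes. The share facing the gene was lowest close to it, 38.7% at 500 to 750 bp (35.2 to 42.3%), and at 1500 to 2000 bp the share was 46.4% (42.4 to 50.4%), an interval that includes an even split. By width, the share was 47.4% (44.5 to 50.3%) for peaks under 450 bp wide, against 34.8% (30.7 to 38.9%) for those from 700 to under 1200 bp. The median offset of the summit toward the gene was −8 bp over all mid-upstream peaks and −166.5 bp among those of at least 1200 bp. The rule uses the summit position, so these shares are a description and carry no test. With peak edges in place of summits to set the distance, 48.4% of mid-upstream peaks faced the gene.

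**Figure D4:**
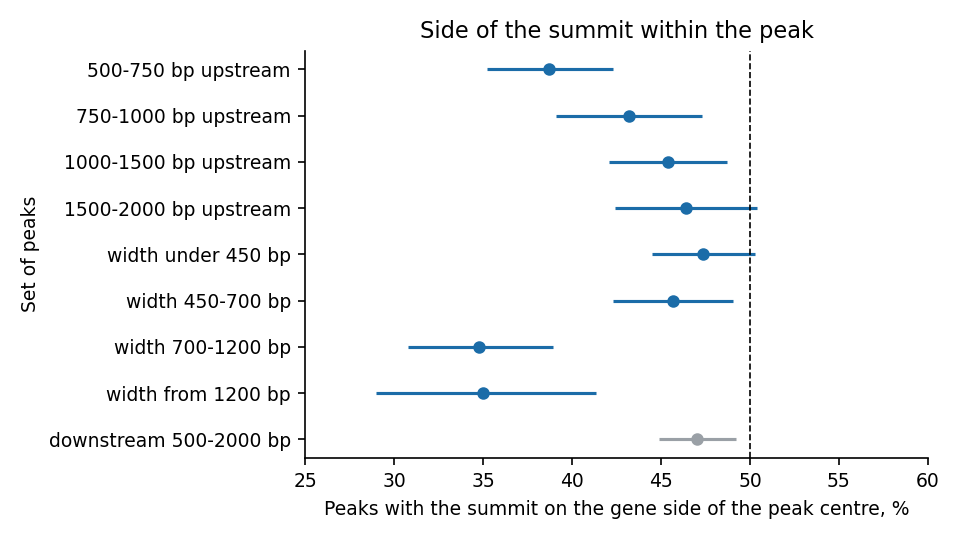
Share of mid-upstream peaks whose summit lies on the gene side of the peak centre (percent, with exact 95% intervals), by distance from the gene start and by peak width, with peaks 500 to 2000 bp downstream in grey. The dashed line marks an even split. The share is lowest, 34.8 to 38.7%, for peaks at 500 to 750 bp and for those of 700 bp or wider.

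Input was raised at few mid-upstream peaks. The input level at the summit, worked out from the deposited statistics, was above the genome-wide floor of 1.85 at 200 of them (7.02%, 95% interval 6.11 to 8.02%), beside 7.95% of all classified peaks. In the first 500 bp upstream the share was 8.93% (409 of 4579), an odds ratio of 0.769 for mid-upstream peaks (95% interval 0.642 to 0.920; Fisher's exact test, adjusted p = 0.00567). The difference missed the threshold in 3 other settings, which kept peaks above the median score, kept widths of 400 to 600 bp or measured distance from the peak edge (adjusted p = 0.124, 0.403 and 0.17 in that order by Fisher's exact test). Input was raised at 7.22% of peaks beyond 2000 bp upstream and at 7.17% of those at the same distance downstream. The rise was mostly small, since the 200 peaks with raised input had a median input level of 2.01. Their median fold was 11.5, and that of the 2650 at the floor was 11.6. A single peak stood far out, on chromosome 5 at 84633210 to 84635185, 751 bp upstream of Zm00001d015327, where input reached 72.9 against 235 ChIP reads and the fold, 3.19, was the lowest of the set. The next highest input level was 3.52.

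Most genes had a single mid-upstream peak. Of the 2682 genes, 2522 (94.0%) had 1, 152 (5.67%) had 2 and 8 (0.298%) had 3. For 1012 genes (37.7%, 95% interval 35.9 to 39.6%) this was the only listed peak of any kind. These solitary peaks had a median fold of 10.9, and the 1838 mid-upstream peaks of genes with further peaks 11.6. At 126 genes at least 5 peaks were listed, and the 165 mid-upstream peaks there had a median fold of 9.11, with 79 (47.9%, 40.1 to 55.8%) above the overall median. The other peaks of these genes lay in every position. Of the 2682 genes, 719 (26.8%) also had a peak inside, 577 (21.5%) one in the first 500 bp upstream, 440 (16.4%) one beyond 2000 bp upstream and 567 (21.1%) one downstream. Of the 4574 genes with a peak in the first 500 bp, those 577 made up 12.6%. Among all 13415 genes with a classified peak, 2682 (19.99%) had a mid-upstream peak. Genes enter these counts only if they have a peak, so the lower share cannot show that the classes avoid each other. No share over all genes with peaks was computed for solitary peaks, genes with at least 5 peaks or further peaks in other positions. Whether those shares are high or low for a gene with peaks is therefore not known.

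Where a gene had both, the strength of its mid-upstream peak showed no rank relation to that of its promoter peak. In 549 genes with exactly 1 peak at 500 to 2000 bp and 1 at 1 to 500 bp, the median folds were 10.96 and 10.2, and Spearman's rho was −0.0044, given as a description. The mid-upstream peak was the stronger in 287 genes and the promoter peak in 250, with 12 ties (two-sided exact binomial test, p = 0.12). The ratio of these counts was 1.15 (95% interval 0.966 to 1.37). The gap was often large. The mid-upstream peak was at least 2 times as strong in 149 genes (27.1%) and the promoter peak in 144 (26.2%). Restricted to peaks of 400 to 600 bp, the mid-upstream peak was the stronger in 63.9% of 61 untied genes (exact binomial test, p = 0.0396). With peak edges to set the distance, it was so in 60.5% of 223 (exact binomial test, p = 0.002). Neither p-value was adjusted over the settings. With edges, peaks that touched the gene counted as inside it. The class at 1 to 500 bp then held 2002 peaks in place of 4579, with 42.7% above the median fold in place of 51.1%. That setting changes which promoter peaks are compared, so it cannot decide which peak of a gene is the stronger.

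The widest gap in favour of the mid-upstream peak was at Zm00001d052525 on chromosome 4. Its peak at 192086478 to 192087279, 1918 bp upstream, had a fold of 78.2, whereas the peak at 192084905 to 192085218, 110 bp upstream, had 3.86. The opposite extreme was Zm00001d017970 on chromosome 5, with a fold of 3.86 at 1353 bp (211021090 to 211021543) and of 62.7 at 207 bp (211021786 to 211022783). Both genes were singled out after their values were seen.

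**Figure D5:**
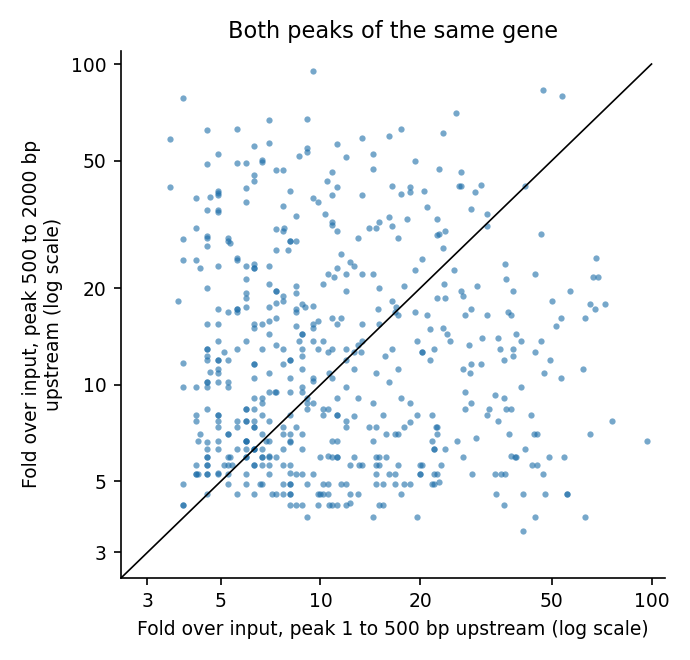
Fold over input of the mid-upstream peak (vertical, log scale) against that of the peak 1 to 500 bp upstream of the same gene (horizontal, log scale), 1 point for each of 549 genes, with the line of equality. Points fill both sides of the line, 287 above and 250 below, without a trend.

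Genes with several mid-upstream peaks were described by their spacing. In the 152 genes with 2, the summits were 788 bp apart in the median (quartiles 630 and 984 bp, range 380 to 1457 bp). The nearer peak was the stronger in 75 and the farther in 76, with 1 tie, and rho between their folds was −0.07. Of the 8 genes with 3, Zm00001d047998 on chromosome 9 had the strongest set. Its peaks at 147617739 to 147618034, 147618256 to 147618872 and 147619024 to 147619588 had summits 540, 1222 and 1987 bp upstream and folds of 9.11, 26.99 and 14.6. At Zm00001d014328 on chromosome 5 the 3 peaks were alike, with folds of 8.41, 7.71 and 8.41 at 563, 1281 and 1877 bp. The remaining 18 peaks of such genes had folds from 4.21 to 11.6.

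Many mid-upstream summits had a close neighbour. The nearest other listed summit was 1796 bp away in the median, against 4618 bp for summits in the first 500 bp and 2231 bp for those beyond 2000 bp. A neighbour within 2000 bp was found for 1512 mid-upstream peaks (53.1%, 95% interval 51.2 to 54.9%), and it lay toward the gene in 1046 cases and away in 466. In the first 500 bp the share with such a neighbour was 33.2% (31.8 to 34.6%), and inside genes it was 40.5%. Beyond 2000 bp upstream it was 46.0% (43.7 to 48.3%), and there too the neighbour lay mostly toward the gene, in 532 cases against 316. No test was run on these differences, and the shares over all classified peaks and at the same distance downstream were not computed. The promoter maximum lies within 2000 bp on the gene side of every mid-upstream summit, so the position rule bears on these counts. The 65 mid-upstream peaks with a neighbour within 500 bp were weak and narrow, with a median fold of 5.61 and width of 298 bp. Those with the nearest neighbour at 1000 to 2000 bp had a median fold of 13.3, and those with none within 5000 bp 10.2. Close summits leave less room for wide peaks, so the widths follow in part from this grouping. The part of width in the differences in fold was not tested.

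Folds were similar across gene lengths. Median folds ran from 11.2 to 11.9 over 5 classes of gene length, and the share above the overall median from 56.4 to 58.1%. A fold of at least 30 was reached at 19.9% (95% interval 15.5 to 24.99%) of the 291 peaks of gene models up to 500 bp and 15.2% (12.97 to 17.6%) of the 969 peaks of models of 2000 to 5000 bp. Counted per peak, the median gene was 2120 bp long. It was 2464 bp for peaks in the first 500 bp and 3969 bp for peaks inside genes. For peaks beyond 2000 bp upstream it was 2246 bp, and for those at 500 to 2000 bp downstream 2146 bp.

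Along the chromosomes, mid-upstream peaks leaned further to the ends than promoter peaks did. The outermost 10% at each end held 1166 of them (40.9%, 95% interval 39.1 to 42.7%), beside 38.1% of all classified peaks. For peaks in the first 500 bp the share was 36.9% (1688 of 4579), an odds ratio of 1.19 (1.08 to 1.31; adjusted p = 0.000994 by Fisher's exact test). It was 42.7% for peaks beyond 2000 bp upstream, 40.7% within 500 bp downstream of the gene and 38.5% at 500 to 2000 bp downstream. The share was larger than that of promoter peaks on 9 of 10 chromosomes. Among these, the 2 shares were close on chromosome 3 (34.2 against 33.7%) and chromosome 7 (42.1 against 41.3%). They were farthest apart on chromosome 9 (43.0 against 34.0%). The exception was chromosome 4, with 21.7% against 27.8%. The stretch from 30 to 60% of the chromosome held 264 (9.26%), beside 10.9% of all classified peaks and 7.70% of those beyond 2000 bp upstream. Mid-upstream peaks at the ends had a median fold of 11.9 and those in the middle stretch 9.29, with 58.8 and 47.7% above the overall median. This contrast was not computed for other position classes or for all classified peaks, so it may not be particular to mid-upstream peaks. The excess of strong peaks over the promoter class was present in both parts, with an odds ratio of 1.32 in the outermost 10% at each end and 1.22 elsewhere (adjusted p = 0.0013 and 0.00393 by Fisher's exact test). For these odds ratios, strong peaks were those above the median fold of the peaks in the same part.

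Between chromosomes, mid-upstream peaks took a similar share of the classified peaks, from 12.1% on chromosome 8 (95% interval 10.7 to 13.7%) to 14.7% on chromosome 5 (13.3 to 16.2%). Median folds ran from 9.89 on chromosome 4 to 12.97 on chromosome 6. Chromosome 4 also had the lowest density, 0.916 mid-upstream peaks per Mb, and chromosome 5 the highest, 1.62 per Mb.

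Peaks just inside and just outside the window had these values. The 208 peaks at 450 to 500 bp had a median fold of 12.8 and the 183 at 500 to 550 bp 11.9, with median widths of 562.5 and 531 bp. At the outer bound, the 53 peaks at 1950 to 2000 bp had a median fold of 12.97 and the 42 at 2000 to 2050 bp 10.2, with median widths of 509 and 451 bp and median pileups of 36 and 28 reads. No test was run at either bound.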

How the data were processed

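MACS2 peaks of 1 ChIP library against 1 input library were deposited by the authors. The submitters' processing notes also name fastp 0.21.0, Bowtie2 2.4.2 and SAMtools 1.11. Per the deposited peak names, duplicates were removed and the effective genome size was 700 Mb. The genome build is not given in the sources used here; contigs and genes carry AGPv4 names. For each peak the authors deposited a fold, a −log10 p-value, a −log10 q-value and a score (the q-value rescaled). The fold is the ratio of ChIP to input with 1 added to each. They also gave the nearest gene, at most 4998 bp away. The depth of the libraries is not in the table.

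Positions were converted to 1-based. Of 21437 listed peaks, 45 that occupy more than 1 row and had a summit in the window of a gene were left out by the rule; their median fold was 19.6. The ChIP pileup and the input level of each peak were computed by inverting the MACS2 formulas for fold and p-value, to a relative error of at most 8.1e-06. On simulated data the pileup of 100% of 3000 peaks and the position class of 100% of 20647 peaks were recovered. The floor of the input level depends on the genome size setting.

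Shares have exact Clopper-Pearson 95% intervals and counts exact Poisson intervals, which cover counting error only. Shares were compared with Fisher's exact test, with p-values adjusted over 8 tests (Benjamini-Hochberg), and odds ratios have exact conditional intervals. Where a setting left a comparison without a value, as away from chromosome ends, the adjustment covered only the remaining tests. The window, the limits and the comparisons were chosen with earlier results of these data known. Named peaks are taken from the 20 of highest fold, from genes with most mid-upstream peaks, from those of highest input and from the bounds; the widest peak and the genes with the largest gaps were chosen later. Pathway lists prepared for gene symbols were not used, since 0 entries of the RefSeq gene table carry these identifiers. Python 3.11.15 was used with scipy 1.17.1, numpy 2.4.6, matplotlib 3.10.9 and pandas 2.3.3.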

Additional observations from a re-analysis of the deposited data

How the results depend on the processing

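The 9 tested results, the upstream to downstream ratio and the side of the summit were recomputed under 8 other settings, and 2 of them under 3 more chosen after seeing the data. Each setting counted strong and wide peaks against the median fold and width of the peaks it kept. In subsets such as peaks above the median score, these need not be the medians of all classified peaks. No paired analysis was possible because each group has 1 library, and none was left out. The difference in fold from peaks inside genes (odds ratio 1.24 to 2.17) and the lean to chromosome ends against promoter peaks (1.16 to 1.29) kept direction and passed Fisher's exact test under all 8. The ratio of upstream to downstream counts, a description, ran from 1.35 to 1.40. Among peaks above the median score, the odds ratio of strong peaks against the first 500 bp was 1.15 (adjusted p = 0.0564 by Fisher's exact test). It was 0.978 against peaks beyond 2000 bp and 0.918 against downstream peaks, and that for raised input was 0.811 (adjusted p = 0.124 by Fisher's exact test). The score is the rescaled q-value, which follows the fold where input is at the floor. This setting, and that of −log10 q of at least 10, thus select on strength itself. They are no independent check of the comparisons of fold. Among peaks of 400 to 600 bp, the odds ratio for width was 1.05 (adjusted p = 0.725 by Fisher's exact test), but this setting restricts width itself. In these peaks the call for raised input was also lost (odds ratio 0.80, adjusted p = 0.403 by Fisher's exact test). The odds ratio of strong peaks was 0.952 against peaks beyond 2000 bp and 0.841 for near against far mid-upstream peaks, and the same-gene ratio was 1.77. Distance from peak edges gave 0.955 against peaks beyond 2000 bp, 0.823 for raised input (adjusted p = 0.17 by Fisher's exact test), 1.53 for the same-gene ratio and 0.94 for the side of the summit. In that setting peaks that touched the gene counted as inside it, which changed the promoter class. With 1 peak per gene and class, near against far gave 0.974. Against peaks 300 to 500 bp upstream the odds ratios were 0.911 for fold and 0.745 for width, and away from chromosome ends that for width was 1.12. The cause of these shifts was not tested. Pileups as low as 9 reads limit the weakest peaks. The tests of near against far under the window up to 1500 bp, and of raised input at the floor, have no value by construction.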
